A study of Mus musculus with 15 samples.

Results

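The DEAD and DEAH box RNA helicases were examined in mouse embryonic stem cells (ESCs) with and without Zscan4 overexpression and in 2-cell embryos with and without Zscan4 RNAi. Members were taken by symbol, as every gene named Ddx or Dhx with a number and, for Ddx, at most 1 further letter. The rule gave 52 of the 51627 genes in the ESC table and 53 of the 53564 in the embryo table. Ddx3x accounts for the difference and was not analysed here in the ESCs. RNA-Seq values came from 2 libraries of Zscan4-overexpressing J1 cells and 2 of wild-type J1 cells, a mouse ESC line kept without feeder cells, and from 6 libraries of Zscan4 RNAi 2-cell embryos and 5 of control 2-cell embryos, labelled wild type. The 4 ESC libraries share the passage label PN+8. The labels do not give the mouse strain of the embryos, the number of embryos in a library, the construct that drove Zscan4 or the RNAi reagent and its control. They also do not say whether libraries came from separate cultures or embryo pools, so a p-value here speaks of library-to-library spread alone, which may be technical.

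Helicases of these families use ATP to open short RNA duplexes or to strip proteins from RNA. DEAD box proteins, named after the residues of a shared motif, usually act locally and bind RNA without reading its sequence, whereas DEAH box proteins pull along a strand and are often switched on by G-patch partner proteins. Members work at nearly every step of an RNA's life: ribosomal RNA processing in the nucleolus, splicing, nuclear export, translation, mRNA storage and decay, and the sensing of viral RNA. The Zscan4 genes encode zinc finger proteins with a SCAN domain; they are switched on around the first wave of zygotic transcription, at the 2-cell stage, and in a small share of ESCs at any time.

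Promoters are shown for 4 members picked from the results below. They are Ddx58, higher in both comparisons, and Dhx8, the member with the largest fold change in embryos. Ddx27 and Ddx49 are 2 of the 6 members higher with overexpression and lower with RNAi. Each window runs from 250 bases before to 50 bases after the RefSeq start on GRCm38.p6 (the assembly of mm10) and is written 5′ to 3′ on the gene's strand. Capitals mark 2 of the 4 motifs searched on both strands: CCGGAAG, an ETS-type core, and GAAA followed by any 2 bases and a second GAAA, the core of interferon response elements (on Ddx58 it is read on the opposite strand). No 2 matches overlapped in these windows. The windows are chr4:40239776-40240075 on the minus strand for Ddx58, chr2:167015063-167015362 on the plus strand for Ddx27, chr8:70302422-70302721 on the minus strand for Ddx49 (the first of its 2 windows) and chr11:101732706-101733005 on the plus strand for Dhx8.
Ddx58: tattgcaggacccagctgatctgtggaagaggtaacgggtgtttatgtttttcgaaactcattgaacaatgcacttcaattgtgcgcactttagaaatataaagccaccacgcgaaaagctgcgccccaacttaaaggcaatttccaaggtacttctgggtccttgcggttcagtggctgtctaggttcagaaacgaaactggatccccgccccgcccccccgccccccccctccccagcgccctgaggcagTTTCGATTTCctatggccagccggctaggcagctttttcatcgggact
Ddx27: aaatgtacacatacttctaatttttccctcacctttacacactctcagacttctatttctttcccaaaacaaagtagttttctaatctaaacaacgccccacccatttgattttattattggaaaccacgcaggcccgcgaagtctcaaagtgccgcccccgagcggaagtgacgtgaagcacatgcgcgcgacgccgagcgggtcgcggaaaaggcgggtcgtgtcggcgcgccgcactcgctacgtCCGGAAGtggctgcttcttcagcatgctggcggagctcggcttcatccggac
Ddx49: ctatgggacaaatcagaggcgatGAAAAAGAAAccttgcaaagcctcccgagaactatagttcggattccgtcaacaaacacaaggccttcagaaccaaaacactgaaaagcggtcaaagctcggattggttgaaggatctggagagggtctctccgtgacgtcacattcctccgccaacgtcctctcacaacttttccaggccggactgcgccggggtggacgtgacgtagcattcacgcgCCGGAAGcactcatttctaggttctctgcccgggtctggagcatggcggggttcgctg
Dhx8: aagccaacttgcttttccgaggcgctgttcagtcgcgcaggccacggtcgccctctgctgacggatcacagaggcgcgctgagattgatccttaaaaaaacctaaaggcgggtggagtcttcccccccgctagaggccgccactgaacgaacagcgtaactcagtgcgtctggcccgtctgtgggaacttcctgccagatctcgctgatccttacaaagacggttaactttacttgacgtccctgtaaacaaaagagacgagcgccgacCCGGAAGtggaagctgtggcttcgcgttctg

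Windows were at hand for 47 of the 53 members, 58 windows in all. CCGGAAG stood in 36.2% of them, in 50% of the 18 windows of ribosome biogenesis members and in 30% of the other 40, against 14.3% of the 16746 windows of genes tested in the ESCs and 8.86% of all 32851 windows. Of the 6 members higher with overexpression and lower with RNAi, Ddx27 and Ddx49 had it. Ddx18, Ddx20 and Ddx51 did not, and Ddx39 had no window, so the printed promoters do not stand for that set. The interferon response core was present in windows of Ddx49, Ddx58 and Ddx60 (6.9% of member windows), against 2.97% of the windows of genes tested in the ESCs and 3.44% of all windows. The E-box CACGTG, a site of Myc-family proteins, stood in 12.1% of member windows, against 9.29% and 7.15% of those same sets, and TGCACAC, a sequence that Zscan4 proteins bind, in 3.45% against 3.95% and 4.4%. Member windows were rich in CpG, with a median of 24, against 18 for genes tested in the ESCs and 7 for all windows. These are descriptions of letters in a window and say nothing of binding.

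Depth ran from 21820093 to 26555027 gene-assigned reads per ESC library and from 695524 to 1432566 per embryo library, so that 1 read in an embryo library was worth 0.687 to 1.39 normalised reads (reads divided by the authors' size factor for each library). Zscan4, summed over its 9 genes, reached 20005 and 19449 normalised reads with overexpression, against 152 and 212 in control ESCs, 108.4-fold higher. The smallest p that an exact two-sided permutation test of 2 against 2 libraries can give, 0.33, was reached. In embryos the sum was 262, 164, 379, 13.9, 383 and 174 in RNAi libraries 1 to 6, against 907, 1064, 680, 676 and 345 in the 5 controls, so RNAi libraries 3 and 5 lay above control 5 (mean log2 difference -2.11, exact two-sided permutation p = 0.013). The overexpression libraries stood apart from each other: the median SD on the log2 scale over all tested genes was 0.41 between them and 0.09 between the ESC controls. Markers of the labelled cells were present: 8 ESC markers summed to 107750 and 143940 normalised reads with overexpression and to 97912 and 98219 in the control ESCs, and 9 markers of the 2-cell stage to 705 to 1618 in RNAi embryos and 1786 to 3369 in control embryos. In the embryos 1 of 8 fibroblast markers (Col3a1), 4 of 9 cumulus and granulosa markers (Amh, Has2, Inha, Inhba) and 2 of 6 blood markers (Hbb-bs, Hbb-bt) were at 0 in every library; no gene of these 3 lists was called in embryos, and their sums were 5.74 to 24.4, 3.28 to 12.4 and 7.81 to 146 with RNAi, against 2.34 to 22.5, 1.68 to 17 and 28.8 to 72.3 in controls.

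Most of the family was well expressed in ESCs. In control ESCs 49 of 52 members lay above the median level per kilobase of exon of the genes tested, with a median percentile of 86.6. Ddx5, a nuclear cofactor of splicing and transcription, was highest at 3641 normalised reads per kilobase (percentile 98.5), followed by Ddx18, Ddx21, Dhx16 and Ddx1. The 3 RNA sensors were lowest, Ddx58 at percentile 44.1, Dhx58 at 40.2 and Ddx60 at 24.5. In control embryos 30 of 53 members lay above the median, with a median percentile of 59.4, and Ddx39 led at 150.2 normalised reads per kilobase (percentile 97.3), followed by Ddx5, Ddx3x, Ddx18 and Ddx19a.

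The balance within paralogous pairs can be read per kilobase of exon. In ESCs Ddx39 stood at 0.749 times the level of Ddx39b per kilobase with overexpression and 0.565 times in controls. In embryos the ratio was 23.5 with RNAi and 39.6 in controls. Both proteins serve the complex that loads mRNA for nuclear export. The ratio of Ddx5 to its paralog Ddx17 per kilobase was 3.86 with overexpression and 3.10 in control ESCs, and 23.3 with RNAi and 40.0 in control embryos. Ddx19a, which frees mRNA from its carrier at the nuclear pore, stood at 1.19 times Ddx19b with overexpression and 0.762 times in control ESCs, and at 10.1 times with RNAi and 6.75 times in control embryos. Of the 50-base words of Ddx19a 28.1% also occur in Ddx19b, so reads of this pair may be split between them. Of Ddx3x and its Y-linked copy Ddx3y, both helicases of translation initiation, Ddx3x had 2317 reads in the RNAi and 2295 in the control embryo libraries, while Ddx3y had 5 reads in the RNAi libraries and 0 in the controls, too few to be tested. The tables were normalised separately, so these ratios were not tested between ESCs and embryos.

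Zscan4 overexpression in ESCs was first asked for its effect on the family. With overexpression 13 members rose and 2 fell, of 52 tested, with a median log2 fold change of 0.22 against -0.02 over all 20888 genes tested. Of all genes 11.7% were called higher and 11.4% lower (limma, Benjamini-Hochberg adjusted p under 0.05), against 25% and 3.85% of members. The family's share of higher calls thus lay above the background and its share of lower calls below it. Among the 16285 genes that reached 10 in 2 or more ESC libraries the background was larger, 15.4% higher and 15.2% lower, with the members' shares unchanged. With a replicate block the higher shares were close, 17.3% of members and 14.1% of all genes. By role, 7 of 16 ribosome biogenesis members rose and 0 fell, while 0 of 11 splicing members rose and 1 fell. The 2 overexpression libraries lay above both controls for 25 members and below both for 12, against 34.2% and 34.6% of all genes. These calls rest on 2 libraries a group. Leaving out an ESC library leaves 1 in its group, so the spread then comes from the other pair alone. The pairs differed in spread (median SD 0.41 between the overexpression libraries and 0.09 between the controls), so counts of calls cannot be compared. No ESC call could therefore be checked by leaving out a library. By sign alone, 29 of the 52 members lay above 0 without overexpression 1 and 37 without overexpression 2. Without control 1 they were 33 and without control 2 they were 32, against 33 with all libraries. Markers of the 2-cell stage summed to 1738 and 2486 normalised reads with overexpression, against 85.7 and 96.4 in control ESCs (5 of 9 called, none at 0 in every library). Oocyte markers summed to 894 and 1640 with overexpression and 781 and 899 in controls (2 of 9 called, Oosp1 and Oosp2 at 0). Sums were 618 and 641 with overexpression and 625 and 687 in controls for 7 fibroblast markers (3 called), 162 and 231 with overexpression and 164 and 180 in controls for 9 cumulus and granulosa markers (2 called), and 24.6 and 40.5 with overexpression and 34.6 and 35.2 in controls for 6 blood markers (0 called), with none at 0 in every library. The sums hide called genes that went both ways. Of the fibroblast markers Col1a2 (4.86-fold) and Col3a1 (7.0-fold) were higher with overexpression and Thy1 2.15-fold lower. Of the cumulus and granulosa markers Tnfaip6 was 14.4-fold higher and Inha 3.69-fold lower. The part of these marker lists in the helicase results was not tested.

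**Figure D1:**
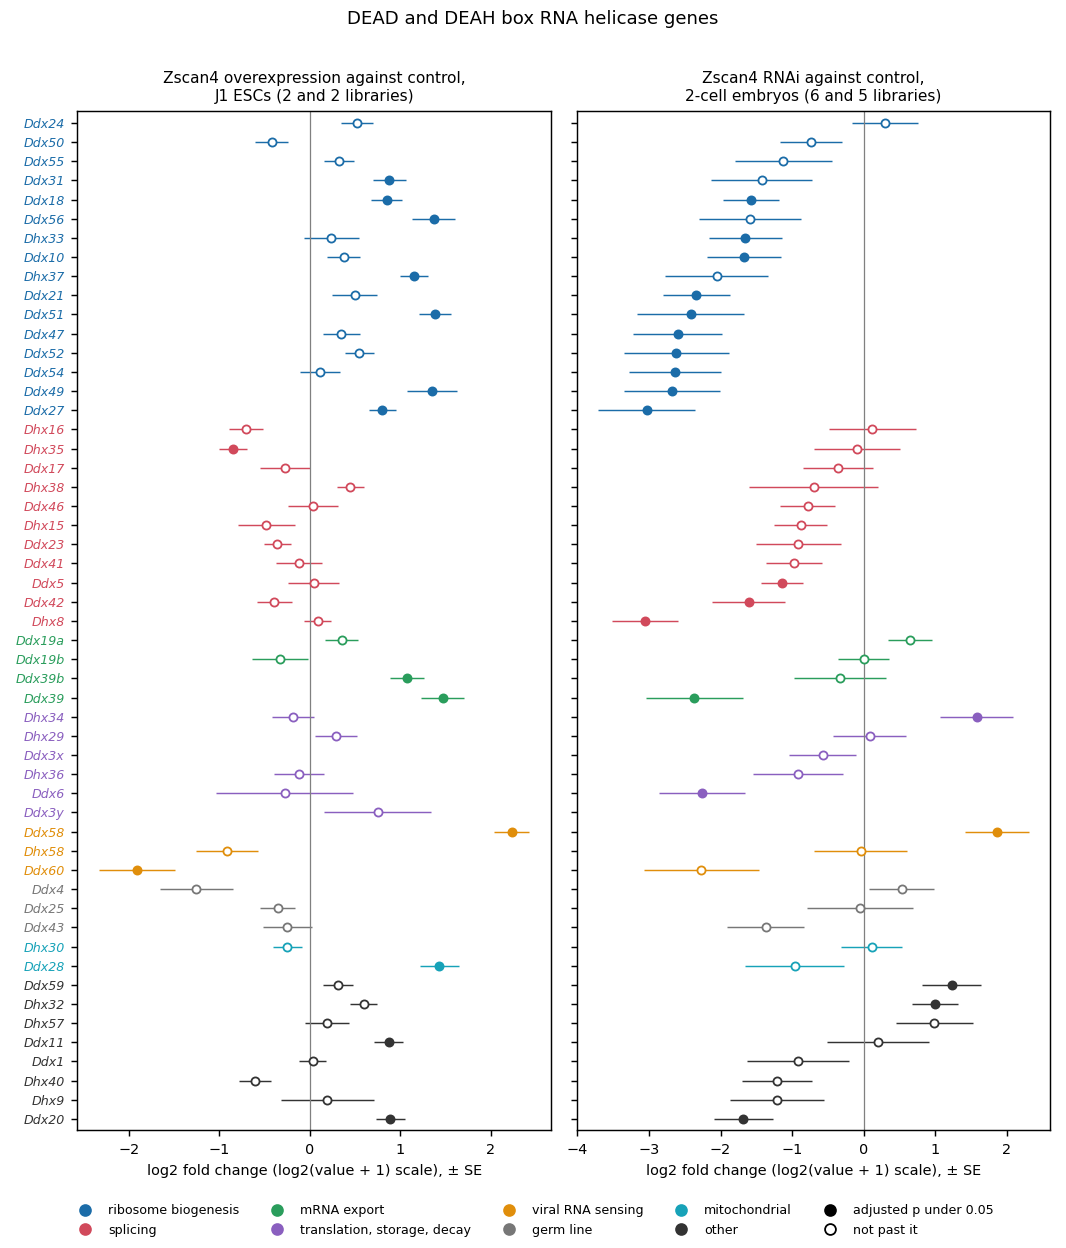
Log2 fold change with its standard error for each helicase gene, coloured by role, for Zscan4 overexpression against control ESCs (left) and Zscan4 RNAi against control 2-cell embryos (right); filled points passed an adjusted p of 0.05 in limma. In the ribosome biogenesis group 15 of 16 genes lie above 0 in the left panel and 15 of 16 below 0 in the right panel.

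Ribosome biogenesis members had a median log2 fold change of 0.54 with overexpression, and 15 of 16 lay above 0. Ddx51, whose yeast relative Dbp6 serves the large ribosomal subunit, had 1319 and 1485 normalised reads with overexpression, against 571 and 503 in controls (log2 fold change 1.38, SE 0.18, adjusted p = 0.0183 by limma). Ddx56, related to yeast Dbp9, had 2659 and 3907 with overexpression, against 1252 and 1244 in controls (1.37, SE 0.24, adjusted p = 0.0282). Both overexpression libraries lay above both controls for each gene. Ddx49, related to the small-subunit factor Dbp8 of yeast, had 3036 and 4920 normalised reads with overexpression, against 1541 and 1488 in controls (log2 fold change 1.35, SE 0.28, adjusted p = 0.0373). Dhx37, the DEAH helicase that removes U3 small nucleolar RNA from the forming small subunit, had 1903 and 1860 with overexpression, against 865 and 824 in controls (log2 fold change 1.16, SE 0.16, adjusted p = 0.0189). Dhx37 was tight in both groups, whereas the overexpression libraries of Ddx49 and Ddx56 differed from each other more than the controls did.

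The other risers of the group were smaller. Ddx18, related to yeast Has1, had 8538 and 10091 normalised reads with overexpression, against 5178 and 5107 in controls (log2 fold change 0.85). Ddx27, a large-subunit factor related to yeast Drs1, had 5471 and 5793 with overexpression, against 3250 and 3207 in controls (0.80), and Ddx31 rose by 0.88. Of the 9 that did not pass the test, Ddx21, a nucleolar helicase tied to RNA polymerase I, had 15542 and 10418 normalised reads with overexpression, against 9021 and 8991 in controls (log2 fold change 0.50, adjusted p = 0.207 by limma). Its paralog Ddx50 was the one member of the group below 0, with 2107 and 1713 with overexpression and 2646 and 2449 in controls (log2 fold change -0.42, adjusted p = 0.162). The mean log2 level over the 16 members of the group was 11.42 and 11.48 with overexpression, against 10.83 and 10.78 in control ESCs. Of the 50-base words of Ddx18, 55.9% also occur in other genes, mainly the copy Gm16433, which averaged 0 normalised reads with overexpression and 0.468 in control ESCs.

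Of the 4 export helicases the 2 that load mRNA rose. Ddx39 had 9060 and 13101 normalised reads with overexpression, against 3905 and 3974 in controls (log2 fold change 1.47, SE 0.23, adjusted p = 0.0242 by limma). Ddx39b had 9590 and 12124 with overexpression, against 5224 and 5017 in controls (log2 fold change 1.07, SE 0.19, adjusted p = 0.0285). The 2 groups did not overlap for either gene. For the pore helicases, Ddx19a had 2439 and 1964 normalised reads with overexpression and 1714 and 1716 in controls (0.35, adjusted p = 0.223), and Ddx19b 5385 and 3079 with overexpression and 5166 and 5099 in controls (-0.33, adjusted p = 0.467). Of the exon bases of Ddx39, 17.4% overlap the opposite-strand gene Adgre5, whose log2 fold change in the ESCs was -0.27 (adjusted p = 0.402).

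Splicing helicases had a median log2 fold change of -0.27. Dhx35, found with the late spliceosome, had 969 and 902 normalised reads with overexpression, against 1683 and 1687 in controls, and fell by 0.85 on the log2 scale (SE 0.16, adjusted p = 0.0305 by limma). Dhx15, which takes spent spliceosomes apart, had 8782 and 4994 with overexpression and 9267 and 9205 in controls (-0.48, adjusted p = 0.314). Ddx5 had 27192 and 17202 normalised reads with overexpression, on either side of the controls at 21412 and 20645 (0.04, adjusted p = 0.927). For Ddx17 the values were 9364 and 5872 with overexpression and 9020 and 8912 in controls (-0.27, adjusted p = 0.498).

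The sensors of viral RNA went different ways. Ddx58 (RIG-I), which binds short double-stranded RNA with a 5′ triphosphate, is on chr4:40203773-40239828 on the minus strand, with 18 exons, and its promoter is printed above. It had 843 and 724 normalised reads with overexpression, against 164 and 168 in control ESCs, 4.73-fold higher (log2 fold change 2.23, SE 0.20, adjusted p = 0.0123 by limma), the largest rise in the family. Ddx60, reported to aid antiviral signalling, had 10.9 and 7.15 with overexpression, against 32.4 and 40.3 in controls, and fell by 1.91 on the log2 scale (SE 0.42, adjusted p = 0.0424), 4.01-fold lower. The call on Ddx60 was lost without the filter on low values, with DESeq2 and with array weights. Dhx58 (LGP2), a relative of RIG-I that does not signal by itself, had 25.5 and 32.2 normalised reads with overexpression, against 50.5 and 59.9 in controls (-0.92, adjusted p = 0.12). Outside the symbol rule, Ifih1 (MDA5), the third of these sensors, averaged 13.5 ± 6.2 normalised reads with overexpression and 1.89 ± 0.0230 in controls (SD, n = 2 each; log2 fold change 2.26, adjusted p = 0.0462).

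Other members that rose were Ddx28, Ddx20 and Ddx11. Ddx28, which helps to assemble the mitochondrial ribosome, had 942 and 1245 normalised reads with overexpression, against 416 and 387 in controls (log2 fold change 1.43, SE 0.22, adjusted p = 0.0224 by limma). Ddx20 (Gemin3), part of the complex that builds spliceosomal ribonucleoproteins, had 2503 and 2186 with overexpression, against 1256 and 1265 in controls (log2 fold change 0.89, SE 0.16, adjusted p = 0.0301). Ddx11, a DNA helicase of sister chromatid cohesion, rose by 0.87. Neither Ddx28 nor Ddx20 overlapped between groups. Among the 3 germ line members 0 were called, and Ddx4 (the Vasa homolog, which works in the piRNA pathway) had 800 and 374 normalised reads with overexpression, against 1304 and 1310 in controls (log2 fold change -1.25, adjusted p = 0.0895).

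The 2 overexpression libraries differed from each other in part of the family, as they did over all genes. Of 52 members 14 were more than 1.5-fold apart between the overexpression libraries, 12 of them higher in overexpression 1, and 0 were so far apart between the controls. Of these 14, Ddx49 and Ddx60 were called between groups, and the groups of Ddx4 and Dhx15 did not overlap either. Ddx6, which represses translation and promotes decapping of mRNA in P-bodies, had 7656 and 1673 normalised reads with overexpression, against 4390 and 4302 in controls (log2 fold change -0.28, adjusted p = 0.811 by limma; the ratio of means, 1.07, points the other way). Dhx9, a nuclear helicase of double-stranded RNA, had 14744 and 5417 with overexpression, against 7878 and 7750 in controls (0.19, adjusted p = 0.807). Ddx3y had 2106 and 651 with overexpression, against 667 and 727 in controls (0.75, adjusted p = 0.398). Dhx36, which unwinds G-quadruplexes, had 3052 and 1874 with overexpression, against 2656 and 2541 in controls (-0.12, adjusted p = 0.783). In each of these 4 genes overexpression 1 lay above both controls and overexpression 2 below both. Between the overexpression libraries the median fold over the 52 members was 1.27, and between the controls 1.03. Over the 15878 tested genes with a mean of at least 10 it was larger, 1.44 between the overexpression libraries and 1.07 between the controls. On value + 1, 25% of members and 45% of those genes were more than 1.5-fold apart between the overexpression libraries, and the pair lay on either side of both controls for 26.9% of members and 17.5% of those genes.

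**Figure D2:**
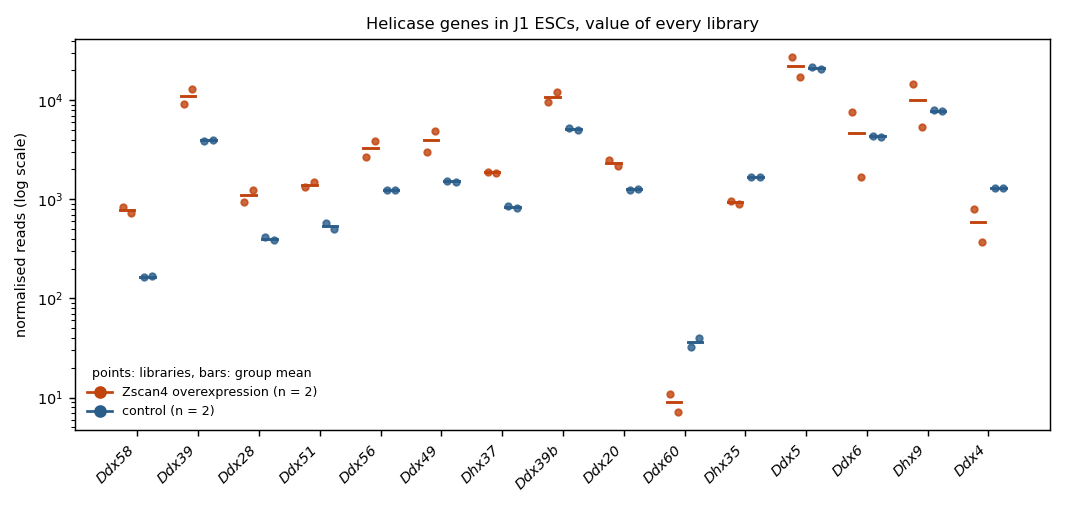
Normalised reads (log scale) of 15 helicase genes in each ESC library, with Zscan4 overexpression (2 libraries) left of control (2 libraries) for every gene and bars at the group means. From Ddx58 to Dhx35 the groups do not overlap, while the overexpression libraries of Ddx5, Ddx6 and Dhx9 lie on either side of the controls.

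The second comparison set RNAi embryos against control embryos, where the family was mostly lower. With RNAi 16 members fell and 4 rose, of 52 tested, and the median log2 fold change was -0.95 against -0.03 over all 16417 genes tested. One of the 4, Dhx34, had no read in any control and so passed the filter on low values only through the RNAi libraries; without it 3 rose. Of all genes 12% were called lower and 6.13% higher (limma, adjusted p under 0.05), so that 1007 of 2983 calls were higher. By edgeR on the recovered reads 1103 of 2417 calls were higher. Of members 30.8% were lower and 7.69% higher in the main fit. The background was larger among better-expressed genes. With the filter at 10, 36.6% of members and 19.2% of all genes were lower, and 7.32% and 11% higher. By edgeR 26.8% of members and 13.9% of all genes were lower, and 7.32% and 11.7% higher. The share of members higher thus lay below the background in both of these fits. By role, 10 of 16 ribosome biogenesis members fell and 0 rose, with a median of -1.87, against 6 lower and 4 higher (Dhx34 included) of the 36 tested members outside it, with a median of -0.64. All RNAi libraries lay below all controls for 4 members (Dhx8, Ddx21, Ddx49 and Ddx20) and above them for 0, against 4.28% and 3.05% of all genes. Markers stored in oocytes summed to 3771 to 10190 normalised reads with RNAi, against 2051 to 4080 in controls, with 3 of 9 called higher and none at 0 in every library, and 4 of 9 markers of the 2-cell stage were called lower; the part of either in the helicase results was not tested. In bulk samples fewer cells with a transcript and less of it per cell cannot be told apart.

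Ribosome biogenesis members were 10 of the 16 that fell. Ddx27 had 0 (lowest), 5.99 (median) and 52.5 (highest) normalised reads in the 6 RNAi libraries, against 64.6, 54.6, 73.8, 58.5 and 39.1 in the 5 controls (log2 fold change -3.03, SE 0.68, adjusted p = 0.00638 by limma). RNAi 2 alone reached the control range, and the other RNAi libraries had 7.82 or less. Ddx49 had 0, 8.63 and 17.1 with RNAi, against 44.4, 67.9, 29.2, 58.5 and 20.5 in controls (log2 fold change -2.67, SE 0.67, adjusted p = 0.0112), with no overlap. Of its exon bases 29.8% overlap the opposite-strand gene Homer3, which averaged 3.86 normalised reads with RNAi and 20.2 in controls (log2 fold change -2.44, adjusted p = 0.0213). Ddx21 had 3.91, 9.6 and 18.9 with RNAi, against 41.9, 70.1, 37.6, 53.9 and 45 in controls (log2 fold change -2.34, SE 0.47, adjusted p = 0.00409), again without overlap, and 4.85-fold lower.

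Members of both subunit pathways were among those that fell. Ddx54, related to the large-subunit factor Dbp10 of yeast, had 1.30, 4.32 and 39.4 normalised reads with RNAi, against 36.9, 57.5, 43.1, 50.3 and 48.9 in controls (log2 fold change -2.64, SE 0.64, adjusted p = 0.00946 by limma), with 15.5% of its exon bases overlapped by opposite-strand genes. Ddx52, related to the small-subunit factor Rok1, had 1.30, 42.5 and 64.0 with RNAi, against 140, 173, 170, 152 and 45 in controls (-2.62, SE 0.73, adjusted p = 0.019). Ddx47, a relative of yeast Rrp3, had 2.60, 8.41 and 64.9 with RNAi, against 72.1, 45.7, 83.5, 123 and 52.8 in controls (-2.60, SE 0.62, adjusted p = 0.00885). In all 3 genes at least the highest RNAi library overlapped the lowest control. Ddx51 had 0, 2.85 and 17.2 with RNAi, against 26.0, 28.0, 8.35, 9.37 and 23.5 in controls (log2 fold change -2.42, SE 0.74, adjusted p = 0.0292). Ddx18 had 19.6, 45 and 84.2 with RNAi, against 131, 196, 143, 130 and 77.2 in controls (log2 fold change -1.58, SE 0.39, adjusted p = 0.011). Both overlapped by their highest RNAi libraries, and the remaining 2 that fell were Ddx10 (-1.67) and Dhx33 (-1.65). The calls on Ddx51, Ddx10 and Dhx33 were lost in 5 of 18, 5 of 20 and 8 of 20 alternatives. Outside the calls, Ddx50 averaged 18.1 ± 7.31 with RNAi and 29.1 ± 7.61 in controls (SD, n = 6 and 5; log2 fold change -0.74, adjusted p = 0.245). The ratio of Ddx21 to Ddx50 per kilobase of exon was 1.11 with RNAi and 3.34 in controls. Which of the pair is higher with RNAi depends on the length used. Per kilobase of the longest transcript Ddx21 stood at 2.17 and Ddx50 at 4.37 with RNAi, against 10.5 and 7.04 in controls.

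The size of the fall differed between RNAi libraries. Averaged over the 16 ribosome biogenesis members, the log2 level was 3.41, 4.52, 2.06, 2.67, 4.11 and 3.12 in RNAi libraries 1 to 6, against 5.16, 5.49, 5.06, 5.35 and 4.84 in the controls. Every RNAi library was below every control on this mean. RNAi 3 or RNAi 4 was the lowest RNAi library for 12 of the 16 members, and RNAi 2 or RNAi 5 the highest for 13. The low libraries were not low in this group alone: RNAi 3 or RNAi 4 was lowest for 32 of the 42 members with a mean of at least 10 (76.2%) and for 44.0% of the 9272 tested genes with such a mean. These 2 also had the fewest genes with a read among the RNAi libraries, 16287 and 16051 against 17104 to 18854, and the highest mitochondrial share of reads, 5.45% and 5.70% against 2.66% to 5.12%. The part of this in the result was not tested. RNAi 3, the lowest on this mean, had a Zscan4 sum of 379, and RNAi 4, the next lowest, one of 13.9. Leaving out 1 library at a time gave 6 to 12 members of the group called lower, the fewest without control 2.

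Splicing members had a median log2 fold change of -0.88, with 3 of 11 called lower. Dhx8, related to yeast Prp22, which releases the spliced mRNA, had 4.64, 18.0 and 41.0 normalised reads with RNAi, against 125, 131, 135, 193 and 75.3 in controls, 7.38-fold lower (log2 fold change -3.06, SE 0.47, adjusted p = 0.00131 by limma). No RNAi library reached the lowest control, and the gene lies on chr11:101732919-101767358 on the plus strand. Ddx42, an ATPase found with the branch-point factor SF3B, averaged 13.1 ± 9.38 with RNAi and 36.9 ± 15.8 in controls (-1.61, adjusted p = 0.0347), a call lost in 10 of 20 alternatives. Ddx5 had 139, 258 and 418 with RNAi, against 561, 570, 575, 663 and 378 in controls (log2 fold change -1.14, SE 0.29, adjusted p = 0.0121). Of its 50-base words 14.6% occur in other genes, mainly the copy Gm12183, whose log2 fold change was -1.63. Ddx17 averaged 14.7 ± 7.09 with RNAi and 18.2 ± 6.77 in controls (-0.36, adjusted p = 0.644), and Dhx15 29.0 ± 11.1 with RNAi and 52.9 ± 14.3 in controls (-0.88, adjusted p = 0.0987; SD, n = 6 and 5).

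Of the export helicases Ddx39 fell. It had 9.13, 219 and 561 normalised reads with RNAi, against 844, 788, 946, 930 and 365 in controls (log2 fold change -2.37, SE 0.68, adjusted p = 0.0219 by limma). Control 5 stood below the other controls and within the RNAi range, and without it the log2 fold change was -2.62. The call was lost in 4 of 20 alternatives: by edgeR (adjusted p = 0.0575) and without control 2, 3 or 4. The overlapping gene Adgre5 averaged 6.84 normalised reads with RNAi and 24.3 in controls (log2 fold change -2.0, adjusted p = 0.0519 by limma). Ddx39b averaged 7.53 ± 1.11 with RNAi and 14.3 ± 11.5 in controls (-0.33, adjusted p = 0.762). Ddx19a averaged 214 ± 79.9 with RNAi and 134 ± 42.7 in controls (0.65, adjusted p = 0.148), and Ddx19b 48.4 ± 23.4 with RNAi and 45.4 ± 7.31 in controls (0.00; SD, n = 6 and 5).

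Among the helicases of translation, storage and decay, Ddx6 fell. Ddx6 had 1.74, 13.7 and 29.0 normalised reads with RNAi, against 78.8, 70.8, 54.3, 51.5 and 23.5 in controls (log2 fold change -2.26, SE 0.60, adjusted p = 0.0147 by limma), with 2 RNAi libraries above the lowest control. Dhx34, which acts in nonsense-mediated decay, had 14 reads over the 6 RNAi libraries and 0 over the 5 controls, at least 3.77-fold higher with the controls set to a floor of 3 reads over the group. It was at 1 or more in 5 of the 6 RNAi libraries, just enough to be tested, and could be tested only because it was high there, so its call is no independent sign of a rise; it was lost in 12 of 17 alternatives. Ddx3x, one of the most abundant members, had 44.1, 365 and 583 normalised reads with RNAi, against 554, 468, 320, 286 and 513 in controls (-0.57, adjusted p = 0.419), and RNAi 4 lay far below the rest. Dhx36 averaged 15.8 ± 13.9 with RNAi and 23.3 ± 13.6 in controls (SD, n = 6 and 5; -0.92, adjusted p = 0.321).

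Ddx58 rose in the embryos too. It had 25.4, 66.5 and 138 normalised reads with RNAi, against 19.3, 13.3, 25.0, 7.02 and 30.3 in controls, 3.78-fold higher (log2 fold change 1.86, SE 0.45, adjusted p = 0.00925 by limma). RNAi 2 alone lay below the highest control. The call held in all 20 alternatives. Dhx58 had 11 reads over the RNAi libraries and 10 over the controls (-0.04, adjusted p = 0.972), and Ddx60 averaged 5.22 ± 5.79 normalised reads with RNAi and 18.3 ± 12.4 in controls (SD, n = 6 and 5; -2.27, adjusted p = 0.0553).

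Ddx20 also fell, with 16.3, 34.7 and 57.7 normalised reads with RNAi, against 87.2, 183, 79.3, 153 and 62.6 in controls (log2 fold change -1.68, SE 0.41, adjusted p = 0.0095 by limma), without overlap. Dhx32 averaged 212 ± 56.6 with RNAi and 109 ± 41.7 in controls, and rose by 1.0. Ddx59 averaged 50.6 ± 28.4 with RNAi and 19.5 ± 5.90 in controls, and rose by 1.23 (SD, n = 6 and 5). These calls on Dhx32 and Ddx59 were lost in 8 and 10 of 20 alternatives. None of the 3 germ line members was called, and Ddx4 averaged 34.5 ± 10.7 with RNAi and 27.0 ± 13.9 in controls (0.53, adjusted p = 0.45). Dhx9 averaged 6.91 ± 4.70 with RNAi and 13.5 ± 4.88 in controls (-1.21, adjusted p = 0.203).

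**Figure D3:**
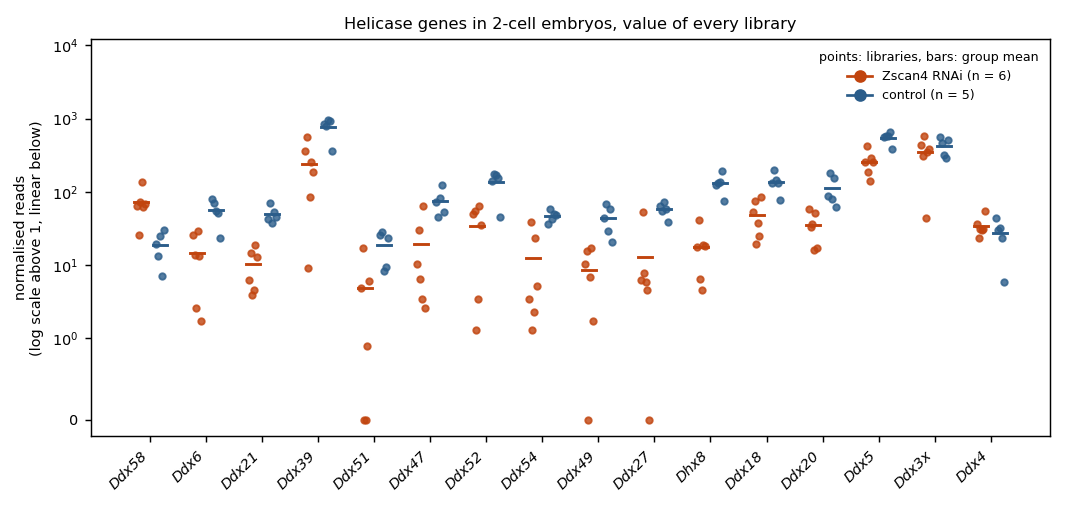
Normalised reads (log scale above 1, linear below) of 16 helicase genes in each 2-cell embryo library, with Zscan4 RNAi (6 libraries) left of control (5 libraries) for every gene and bars at the group means. Dhx8, Ddx21, Ddx49 and Ddx20 show no overlap, and in Ddx58 5 of the 6 RNAi libraries lie above all controls.

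Chromosome 11 carries 8 members, and its genes as a whole were lower in both comparisons. The median log2 fold change of its tested genes was -0.49 with overexpression (1537 genes) and -0.31 with RNAi (1201 genes). In ESCs 1 of the 8 members, Ddx56, rose and 0 fell, and in embryos 5 fell and 0 rose. With each chromosome centred on its own median, Dhx8 (-2.69, adjusted p = 0.00163 by limma) and Ddx52 (-2.25, adjusted p = 0.0262) still passed in embryos, while Ddx5 (-0.77, adjusted p = 0.063), Ddx42 (-1.24, adjusted p = 0.0894) and Dhx33 (-1.28, adjusted p = 0.0706) did not. In ESCs centring gave 1.85 for Ddx56 (adjusted p = 0.0128) and brought Ddx52 past the threshold (1.03, adjusted p = 0.0221).

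The comparisons share no library, and 51 members were tested in both. Of the 13 members higher with overexpression and the 16 lower with RNAi, 6 were in both sets: Ddx18, Ddx20, Ddx27, Ddx39, Ddx49 and Ddx51. The embryo calls on Ddx39 and Ddx51 did not hold in every alternative, as given above. The ESC calls on all 6 rest on 2 libraries a group and could not be checked by leaving out a library. Those on Ddx18 and Ddx27 were lost with the replicate block. The 6 genes made up 46.2% of the first set and 37.5% of the second. Over the 13072 genes tested in both, 326 had this pattern, 19.9% and 19.0% of the same sets. Members were called more often in each comparison, 13 and 16 of 51, against 1638 and 1717 of the 13072 genes. Higher calling rates alone give a larger overlap, and whether the overlap goes beyond them was not tested. Of these 6, 4 are ribosome biogenesis members. No member was lower with overexpression and higher with RNAi, against 110 such genes in all. These 110 were 7.94% of the genes lower with overexpression and 13.9% of those higher with RNAi. With only 2 members lower with overexpression and 4 higher with RNAi, the absence cannot be read as a trait of the family. Ddx58 was the member higher in both, as were 83 genes in all (5.07% of those higher with overexpression and 10.5% of those higher with RNAi). The difference in effect between ESCs and embryos was not tested, since the tables were normalised separately and differ in depth.

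**Figure D4:**
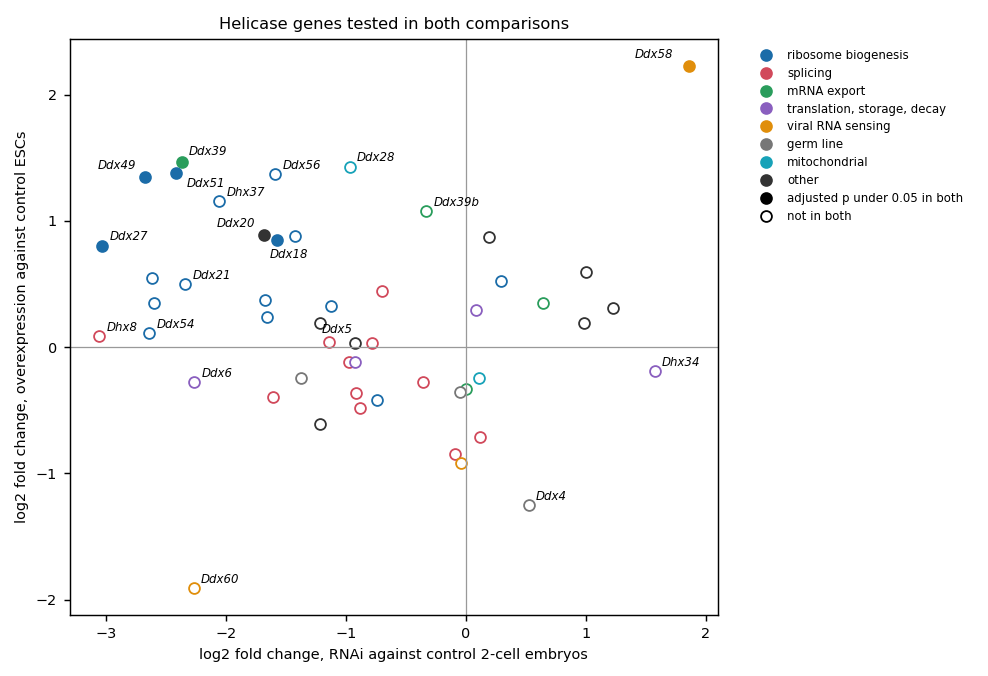
Log2 fold change of the 51 helicase genes tested in both comparisons, Zscan4 RNAi against control 2-cell embryos on the horizontal axis and Zscan4 overexpression against control ESCs on the vertical axis; filled points passed an adjusted p of 0.05 in both. The upper left of the plot holds the 6 genes higher with overexpression and lower with RNAi, and Ddx58 is the one filled point at the upper right.

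Partners of these helicases and RNA helicases outside the symbol rule were described from lists. Of 29 helicase cofactors 10 rose and 2 fell with overexpression (median log2 fold change 0.53), and 0 rose and 7 fell with RNAi (median -0.55), beside the background shares given above. In ESCs the G-patch genes Gpatch3 (427 ± 65.9 with overexpression and 36.4 ± 6.45 normalised reads in controls, 11.7-fold) and Gpatch4 (2027 ± 85.7 with overexpression and 248 ± 1.02 in controls, 8.18-fold) rose most, Pinx1, whose yeast relative activates the DEAH helicase Prp43, rose by 2.20, and Pdcd4, an inhibitor of the helicase Eif4a1, fell by 1.53 (SD, n = 2 each). In embryos Zgpat (-3.04), Gpkow (-2.71), Rbm5 (-2.58) and Gpatch3 (-2.50), all with a G-patch, had the most negative log2 fold changes of those called. By the ratio of group means Gpatch4, also called, was lowest (0.867 ± 1.33 with RNAi and 7.15 ± 6.01 normalised reads in controls, 8.25-fold lower; SD, n = 6 and 5), ahead of Zgpat at 7.89-fold. Of 24 other RNA helicases tested in ESCs 2 rose and 2 fell (median -0.09), with Skiv2l2, a nuclear exosome helicase, at 0.81, the initiation factor Eif4a2 at -1.74, Upf1 of nonsense-mediated decay at -0.72 and Ifih1 as above. In embryos 0 of 21 rose and 2 fell (median -0.09), the exon junction helicase Eif4a3 (-2.30) and the piRNA helicase Mov10l1 (-2.45).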

How the data were processed

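Gene-level RNA-Seq values of 4 ESC and 11 embryo libraries were used, grouped by the genotype labels. Titles say RNA-Seq, although the source label reads genomic DNA, the kit is one for DNA libraries and the embryos carry the ESC growth text. Per the submitters' processing notes, Trimmomatic, HISAT2 and featureCounts were used with mm10; versions and the strand setting were not stated in the sources. As deposited by the authors, each experiment has 1 table of normalised signal, that is, reads per gene over a library factor: 100% of values were whole multiples of a fixed step, within 0.01 read, which gave back whole reads. The unit was unknown when the design was written, and its test for normalised values was used.

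Each table was fitted with limma 3.58.1 (trend) on log2(value + 1), without covariates, for genes that reached 1 in 2 or more ESC libraries or in 5 or more embryo libraries, with Benjamini-Hochberg adjustment over all genes and a threshold of 0.05. Log2 fold changes on that scale understate low genes, and 'fold' means a ratio of group means. Alternatives were pseudocounts of 0.5 and 5, no filter, a filter at 10, TMM scaling, edgeR 4.0.16 (5002 ESC and 2417 embryo genes called) and DESeq2 1.42.0 (5233 and 3088) on the recovered reads, array weights, centring by chromosome, an ESC replicate block and leaving out each library. Each fit was tested on simulated data. Members, role groups and lists were chosen with earlier results of these data known. Named genes were the 10 called members per comparison with the largest absolute log2 fold change and a mean of at least 10 in a group, members called in both, the other called members, a fixed set of well-known members whatever their values, and up to 4 called genes per other list. Coordinates and exon lengths are from GENCODE vM21 (GRCm38), promoters from RefSeq. Same-numbered ESC libraries did not deviate together (correlation -0.00719, 2 pairs), and the embryo control columns carry other numbers than the labels, so no libraries were paired. Floors cover counting error only, since reads carry no molecular identifiers.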

Additional observations from a re-analysis of the deposited data

Results flagged for a closer look

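Of 64 sets of libraries examined, each being 1 named member in 1 embryo group, 6 held a library far from the rest. The rule flags about 1 in 20 sets of normally distributed values. It was applied to normalised reads without a log scale, some of them a few reads, so the chance rate here is not known. Ddx27 had 52.5 normalised reads in RNAi 2, against 0 to 7.82 in the other RNAi libraries. In the same library Ddx51 had 17.2, against 0 to 6.07 in the others. Ddx19b had 94.6 in RNAi 6, against 27.9 to 45.3 in the other RNAi libraries. In control 5 Ddx39 had 365, against 788 to 946 in the other controls, and Ddx52 had 45, against 140 to 173. Dhx58 had 6.71 in control 1, against 0 to 1.39 in the other controls, which is a few reads. Control 5 was the lowest control for 21 of 52 members and had the lowest Zscan4 sum of the controls.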

How the results depend on the processing

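In the ESCs, leaving out 1 library gave 0 to 10855 genes called, 0 to 27 members higher, 0 to 17 members lower and 0 to 13 ribosome biogenesis members higher, against 4843, 13, 2 and 7; without either control nothing was called, and 4 members higher and 0 lower had an unadjusted p under 0.05. Array weights gave 3195 genes, and no filter gave 1 member lower. With the replicate block 6024 genes, 9 members higher, 2 lower and 4 ribosome biogenesis members higher were called. In that fit 17.3% of members were higher and 3.85% lower, against 14.1% and 14.8% of all genes. The share of higher calls then lay close to the background, unlike the 25% against 11.7% of the main fit. The ESC numbers do not mark shared samples. Without overexpression 1 the log2 fold change was -0.29 for Ddx5 (0.04 with all; 0.37 without overexpression 2), -1.38 for Ddx6 (-0.28 with all; 0.82 without overexpression 2) and -0.53 for Dhx9 (0.19 with all; 0.92 without overexpression 2); the cause was not tested. No paired analysis was possible for the embryos because the control columns do not carry the labels' numbers. In the embryos, leaving out 1 library gave 1730 to 3578 genes, 1 to 4 members higher, 10 to 19 members lower and 6 to 12 ribosome biogenesis members lower, against 2983, 4, 16 and 10. Members higher were 1 without RNAi 5 or control 1, 2 or 4, members lower 10 without control 2, and ribosome biogenesis members lower 6 without control 2. In these fits 19.2% to 36.5% of members were lower, against 7.39% to 13.9% of all genes. Members higher were 1.92% to 7.69%, against 3.09% to 7.94% of all genes. The share of members higher exceeded that of all genes only without RNAi 2 or control 3. No filter gave 1 member higher (1.89%, against 2.29% of all genes). DESeq2 put the median of all embryo genes at 0.11, against -0.03.

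No called member changed direction in any alternative, in either comparison. Besides the losses without either control, the ESC calls on Ddx11, Ddx18, Ddx27, Ddx31 and Dhx35 were lost with the replicate block. That on Ddx31 was lost with array weights as well. In embryos Ddx18, Ddx20, Ddx21, Ddx27, Ddx47, Ddx49, Ddx58, Ddx6 and Dhx8 passed in all 20 alternatives. Embryo depth limits low members: 7 averaged under 10 normalised reads in both groups.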
